A study of Homo sapiens with 9 samples.

Results

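The hairpins sh1 and sh2, both directed against STAG2, were compared with each other gene by gene, in 6 of the 9 libraries of the series (3 with each hairpin), in which the remaining levels of their target overlapped. The libraries were taken by the hairpin named in their titles, and sh2 was paired with sh1 by replicate number. RT112 is an established human bladder carcinoma cell line. All cells were grown with serum, transduced with a hairpin and then moved to medium without serum, so the 3 groups share the transduction and the loss of serum. The control group (shNT, 3 libraries) carried a control hairpin and entered as the reference level. Poly(A)+ RNA, to which the same quantity of ERCC spike-ins had been added in each sample, was sequenced with strand information. Whether the replicates are separate cultures is not stated in the labels, and the p-values reflect only how far these libraries differ, part of which may be technical.

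STAG2 is a subunit of cohesin, the ring-shaped complex that holds sister chromatids together and forms chromatin loops, and it is often inactivated in bladder cancer. A short hairpin RNA is cut by the cell into a small RNA that guides the Argonaute proteins to transcripts that pair with it. Such a small RNA lowers its target by full pairing, and it can also lower other transcripts whose 3′ untranslated region (3′ UTR) pairs only with its seed, the stretch near its 5′ end. For this reason silencing studies often use more than 1 hairpin per gene.

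Values are FPKM (fragments per kilobase of transcript, scaled to the mapped fragments of the library), and differences are sh2 minus sh1 on log2(FPKM + 1), which understates the change of low genes. The summed FPKM without spike-ins ran from 397792 to 421093 in the 6 hairpin libraries, and from 402762 to 516464 in the control libraries. In the 6 hairpin libraries spike-ins made up 1.28% to 1.95% of the sum that includes them. The number of fragments behind a value is unknown, so no counting interval is given. Epithelial markers fitted the label: KRT8 lay between 476 and 889 FPKM and KRT18 between 258 and 338 FPKM in the 6 libraries. Of the immune markers PTPRC was at most 0.266 FPKM in all 9 libraries, and the 13 immune markers together summed to 4.66 to 7.97 FPKM with sh1 and 5.91 to 8.76 FPKM with sh2. CD68 was the highest of them, at 2.09 to 12.1 FPKM over the 9 libraries, and LYZ reached 0.634 to 1.33 FPKM. The 8 endothelial markers summed to at most 2.35 FPKM in any library. Among 10 fibroblast markers COL1A2 was listed at 0 in all 9 libraries, while LUM, which encodes a matrix proteoglycan, reached 115 to 370 FPKM in the hairpin libraries.

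STAG2 (chromosome X, 123960212 to 124422664, plus strand, GRCh38) was 3.76, 4.13 and 5.34 FPKM in sh1 replicates 1, 2 and 3, and 3.41, 4.93 and 3.48 FPKM in sh2 replicates 1, 2 and 3. The control libraries held 16.8, 34.7 and 27.7 FPKM. The ranges of the hairpins overlapped, and every hairpin library lay below every control library. The means were 4.41 ± 0.824 FPKM with sh1 and 3.94 ± 0.857 FPKM with sh2 (SD, n = 3 each), against 26.4 ± 9.02 FPKM in the control. The difference was -0.13 (SE 0.19, 95% interval -0.57 to 0.30, adjusted p = 0.746, limma). The interval holds differences of either sign, so the test does not show that the levels were equal, and the value turned to 0.02 without sh2 replicate 3. The 3 pairs gave -0.11, 0.21 and -0.50.

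Across the 11952 genes with a mean of at least 1 FPKM, 17 differed between the hairpins at an adjusted p under 0.05 in a limma fit of all 9 libraries with the replicate number as a block. They were 0.142% of the genes tested, with 12 higher in sh2 (0.1%) and 5 lower in sh2 (0.0418%). All 17 differed in the same direction in each of the 3 pairs, as did 56.3% of all tested genes, and their sh1 and sh2 libraries did not overlap, which held for 28.6% of all tested genes. When the control libraries were left out and the spread was taken from the 3 pairs alone, 2038 genes passed (17.1%), 1043 of them higher in sh2 (8.73%) and 995 lower in sh2 (8.32%). Those 2038 genes include all 17. The fits give the same difference for a gene and differ in its error: the median standard error was 0.15 with 9 libraries and 0.11 with 6. The 6-library fit has only 2 residual degrees of freedom, against 4. The count of 17 became 26 without the block, and the count of 2038 became 92 without it.

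The count of 17 also hangs on single libraries. It rose to 421 without shNT replicate 1 and to 93 without shNT replicate 3, and it was 2 without shNT replicate 2, 0 without sh1 replicate 1, 5 without sh1 replicate 2, 2 without sh1 replicate 3, and 0 without any 1 of the sh2 replicates. At an unadjusted p under 0.05, 2239 genes differed with all libraries, and 1019 to 3500 did with 1 library left out. Most of the differences were small: the median size over all tested genes was 0.18, and 109 genes reached 1.

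**Figure D1:**
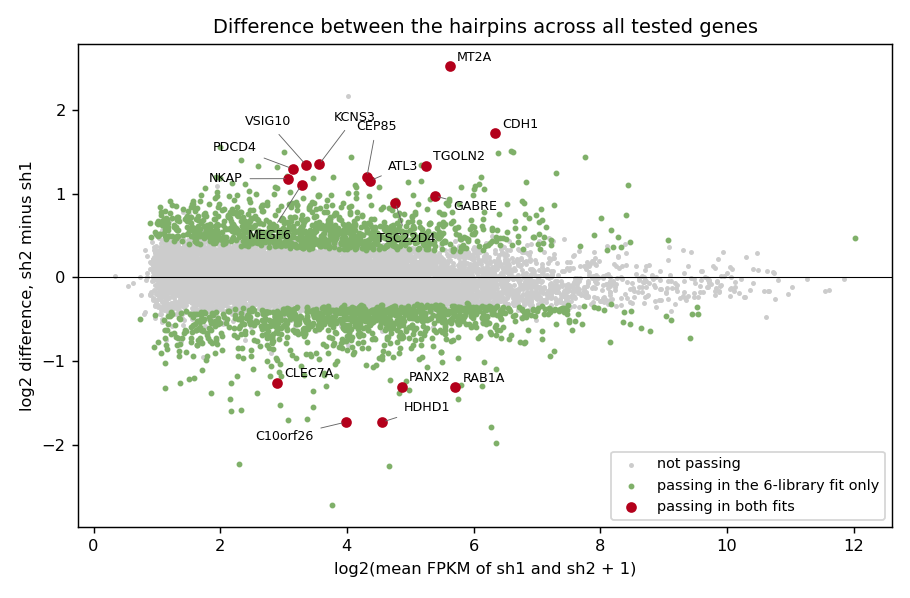
Each point is 1 of the 11952 tested genes. The x axis is the log2 mean FPKM of the sh1 and sh2 groups plus 1, and the y axis is the log2 difference, sh2 minus sh1. Red points are the 17 genes that passed with 9 libraries, green points those that passed only with the 6 hairpin libraries, and gray points the rest. The green points start at small differences, and MT2A stands highest among the red ones at 2.52.

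The largest difference of the 17 was in MT2A, which encodes a metallothionein that binds zinc and copper. It was 8.22, 9.36 and 26.7 FPKM in the sh1 libraries and 77.7, 54.7 and 113.0 FPKM in the sh2 libraries. The control libraries, at 39.2, 40.7 and 70.0 FPKM, lay between the hairpins in mean. The difference was 2.52 (SE 0.20, adjusted p = 0.0115, limma), and MT2A was the gene with the smallest adjusted p in the 9-library fit. Metallothionein genes are close copies of one another, so reads may be split between MT2A and its relatives.

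CDH1, which encodes E-cadherin, the adhesion protein of epithelial junctions, was 40.0, 30.8 and 39.0 FPKM with sh1 and 143.1, 112.5 and 113.1 FPKM with sh2. The control libraries held 80.9, 102.5 and 75.3 FPKM, so the control stood above every sh1 library and below every sh2 library. The difference was 1.72 (SE 0.17, adjusted p = 0.0397, limma). Against the control, sh1 differed by -1.21 (adjusted p = 0.0456) and sh2 by 0.51 (adjusted p = 0.244). In CDH1, 4 of the 9 deposited values had lost their decimal point and were restored. The same held for 7 of the 9 values in each of RAD21 and VDAC1, which are described below.

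For PDCD4, TGOLN2 and KCNS3 the control stood near the sh2 level. PDCD4, an inhibitor of translation known as a tumor suppressor, was 3.32, 3.14 and 6.23 FPKM with sh1 and 11.3, 11.05 and 11.95 FPKM with sh2, against 8.90, 11.3 and 12.4 FPKM in the control. TGOLN2, a marker protein of the trans-Golgi network, was 18.5, 17.6 and 25.98 FPKM with sh1, and 50.4, 54.7 and 53.8 FPKM with sh2. KCNS3, a modulatory subunit of voltage-gated potassium channels, was 4.71, 6.92 and 5.46 FPKM with sh1 and 15.7, 14.9 and 17.2 FPKM with sh2. In these genes the sh1 libraries were the low ones: their differences were 1.30 (SE 0.17, PDCD4), 1.33 (SE 0.17, TGOLN2) and 1.35 (SE 0.15, KCNS3), each with an adjusted p of 0.0452 (limma).

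A further 7 genes were higher in sh2. VSIG10 differed by 1.34 and NKAP, a transcriptional repressor of the Notch pathway, by 1.18. CEP85, a centrosomal protein, differed by 1.196, and ATL3, an atlastin that fuses membranes of the endoplasmic reticulum, by 1.15. MEGF6 differed by 1.10, GABRE, the epsilon subunit of the GABA-A receptor, by 0.97, and TSC22D4 by 0.89. NKAP shows the separation: it was 3.64, 3.97 and 4.98 FPKM with sh1, 11.04, 10.5 and 10.5 FPKM with sh2, and 10.97, 9.45 and 9.52 FPKM in the control. TSC22D4 was 18.3, 19.8 and 16.1 FPKM with sh1 and 36.1, 34.7 and 32.1 FPKM with sh2, against 34.1 ± 4.10 FPKM in the control (SD, n = 3).

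Of the 5 genes lower in sh2, PANX2, a pannexin channel, and CLEC7A, the beta-glucan receptor dectin-1, were high with sh1 and at the control level with sh2. PANX2 was 53.7, 38.4 and 30.6 FPKM with sh1, 15.5, 17.1 and 14.1 FPKM with sh2, and 19.4, 16.7 and 14.02 FPKM in the control. CLEC7A was 14.4, 7.71 and 6.75 FPKM with sh1 and 4.21, 2.69 and 3.01 FPKM with sh2, with a control mean of 3.29 ± 0.908 FPKM (SD, n = 3). Their differences were -1.30 (SE 0.15) and -1.25 (SE 0.15).

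The remaining 3 were the reverse case, in which sh2 stood apart from the control. RAB1A, a small GTPase of transport from the endoplasmic reticulum to the Golgi, was 75.4, 72.7 and 70.7 FPKM with sh1, 22.3, 41.0 and 26.2 FPKM with sh2, and 56.5, 67.5 and 52.0 FPKM in the control. C10orf26 (also named WBP1L) was 25.3, 22.9 and 20.9 FPKM with sh1 and 3.93, 8.27 and 7.37 FPKM with sh2, against 18.8 ± 2.61 FPKM in the control (SD, n = 3). HDHD1 (also named PUDP), a pseudouridine phosphatase, was 37.3, 38.1 and 29.2 FPKM with sh1 and 6.17, 13.1 and 11.4 FPKM with sh2, against 24.99 ± 4.97 FPKM. The differences between hairpins were -1.31 (SE 0.17, RAB1A), -1.72 (SE 0.23, C10orf26) and -1.72 (SE 0.24, HDHD1), with adjusted p of 0.0452, 0.0452 and 0.0494 (limma). Of sh2 against the control, none of the 3 passed (adjusted p = 0.203 each). In mean, 14 of the 17 genes lay farther from the control with sh1 and 3 farther with sh2; over all tested genes 48.1% lay farther with sh1. These comparisons share the hairpin libraries, so the split is a description.

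**Figure D2:**
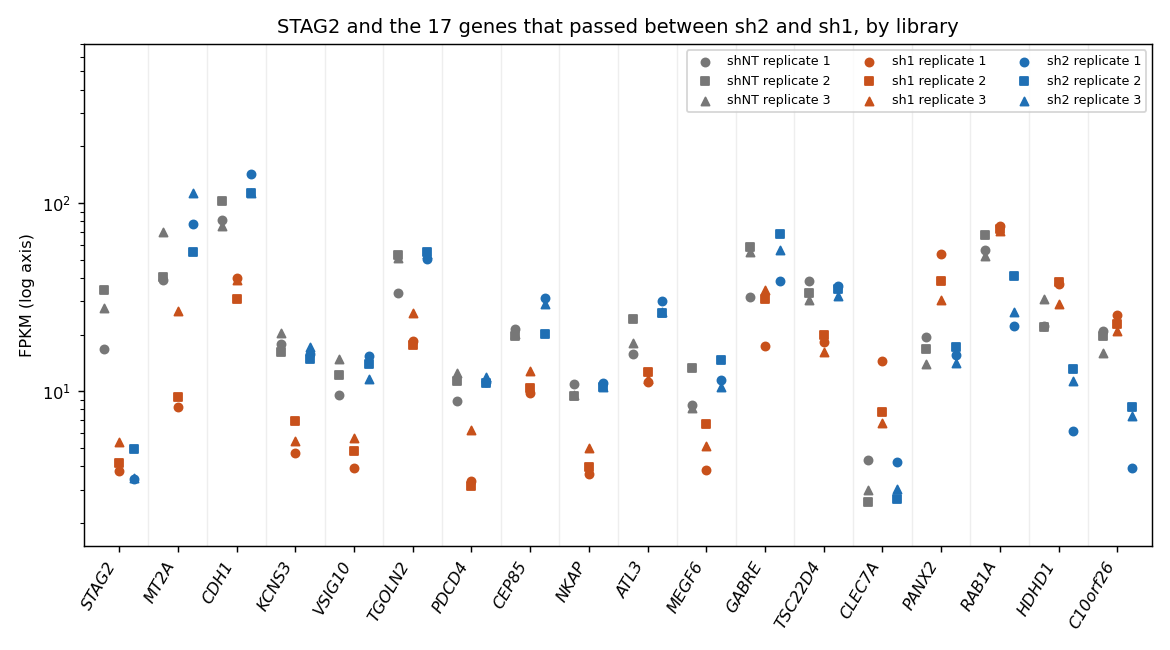
FPKM on a log axis of STAG2 and the 17 genes that passed between the hairpins, with 1 symbol per library: gray for shNT, orange for sh1, blue for sh2, and circle, square and triangle for replicates 1, 2 and 3. STAG2 overlaps between sh1 and sh2. From MT2A to TSC22D4 the orange symbols lie below the blue ones and, except for 1 library of GABRE, below the gray ones. For CLEC7A and PANX2 the orange symbols are the high ones, and for RAB1A, HDHD1 and C10orf26 the blue symbols are low.

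Gene groups are described by the 6-library fit, since CDH1 was the only list member among the 17. Their counts are to be read against the 8.73% higher and 8.32% lower of all genes tested in that fit. Of 25 tested epithelial junction genes, 1 was higher in sh2 (CDH1) and 5 were lower: EPCAM, CLDN1, CLDN7, OCLN and TJP3. EPCAM, a cell adhesion protein of epithelia, was 63.0, 65.8 and 51.0 FPKM with sh1 and 32.0, 44.5 and 38.7 FPKM with sh2. Of the 3 tested claudins, the sealing proteins of tight junctions, CLDN1 differed by -0.41 and CLDN7 by -0.86, while CLDN4 did not pass (0.20). The median of the 25 was -0.14, against -0.0072 over all tested genes. CDH1 was thus opposite in direction to the other junction genes that passed.

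Among 21 tested basal and squamous markers, 5 were lower in sh2 and 1 higher, with a median of -0.16. The lower ones are genes of squamous differentiation. KRT1, a keratin of differentiating epidermis, was 41.7, 1.28 and 28.8 FPKM with sh1 and 1.81, 0.776 and 1.08 FPKM with sh2, so its difference of -2.71 rests on sh1 replicates 1 and 3. KRT10, its partner keratin, was 56.7, 18.7 and 47.8 FPKM with sh1 and 15.4, 12.9 and 13.1 FPKM with sh2. IVL (involucrin) differed by -1.18, SPRR3 by -1.60 and S100A9 by -0.94. Of the 5 lower genes, the sh1 and sh2 libraries overlapped in all but KRT10. KRT14, the keratin of basal cells, went the other way: 40.4, 31.6 and 70.6 FPKM with sh1 and 256.7, 78.2 and 106.0 FPKM with sh2 (difference 1.499, SE 0.30, adjusted p = 0.0141, limma with 6 libraries). The median of this list was 0.22 without sh1 replicate 3.

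Luminal urothelial markers showed 3 of 19 lower in sh2 and 1 higher. GRHL3, a transcription factor of the urothelial barrier, differed by -1.19, the uroplakin UPK1B by -0.77, and the receptor FGFR3 by -0.52. FGFR3, an oncogene in bladder cancer, was 42.7, 41.4 and 42.9 FPKM with sh1 and 24.9, 30.4 and 33.1 FPKM with sh2. ERBB2 was higher in sh2 by 0.37.

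Of 12 tested mesenchymal markers, 6 were higher in sh2 and 1 lower, with a median of 0.37. AXL, a receptor tyrosine kinase, was 2.88, 1.62 and 4.06 FPKM with sh1 and 17.7, 3.54 and 12.6 FPKM with sh2, with sh2 replicate 2 inside the sh1 range. SNAI2, the transcription factor Slug, was 83.0, 75.0 and 80.3 FPKM with sh1 and 147.2, 108.9 and 106.8 FPKM with sh2. FN1, fibronectin, was lower in sh2 (difference -0.76): 510.0, 138.8 and 450.0 FPKM with sh1, and 296.5, 105.0 and 207.2 FPKM with sh2. The mesenchymal list is not of 1 direction.

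TGF-beta genes had 9 of 25 higher in sh2 and 3 lower, and a median of 0.26. Of the 4 genes of the latent TGF-beta binding protein family, LTBP2 was higher by 0.86, LTBP3 by 0.73 and LTBP4 by 0.82, while LTBP1 did not pass (0.0080). The targets CTGF and CYR61 and the inhibitor SMAD7 also were higher, by 0.76, 0.78 and 0.82. SMAD7 was 8.61, 6.504 and 7.04 FPKM with sh1 and 20.9, 12.9 and 9.58 FPKM with sh2. The 3 lower members were the receptor TGFBR2 (-0.63), the ligand TGFB2 (-0.70) and the co-repressor SKI (-0.74). TGFBI stands in both this list and the mesenchymal one.

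Interferon-stimulated genes had 13 of 31 higher in sh2 and 1 lower, with a median of 0.25 (0.14 to 0.33 in the 3 pairs). IRF1, a transcription factor of the interferon response, was 5.76, 7.06 and 6.93 FPKM with sh1 and 12.4, 11.4 and 14.7 FPKM with sh2. IFIT3 was 4.64, 5.52 and 4.71 FPKM with sh1 and 12.7, 7.50 and 10.1 FPKM with sh2 (difference 0.88, SE 0.16, adjusted p = 0.0112, limma with 6 libraries). IFI6 differed by 0.84, IRF9 by 0.68, and STAT2 by 0.42. DDX58, which encodes the RNA sensor RIG-I, was the 1 lower member: 13.2, 8.79 and 4.04 FPKM with sh1 and 6.38, 4.69 and 2.65 FPKM with sh2.

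Respiratory chain genes encoded in the nucleus had 8 of 43 lower in sh2 and 1 higher, and 39 of the 43 differences were below 0, with a median of -0.22. COX5A, a cytochrome c oxidase subunit, was 117.4, 124.2 and 105.4 FPKM with sh1 and 50.1, 79.7 and 82.0 FPKM with sh2. The ATP synthase genes that passed, ATP5A1, ATP5F1 and ATP5G3, differed by -0.52, -0.40 and -0.37. SDHD, a membrane anchor of succinate dehydrogenase, was the exception at 0.87, with 26.2, 34.2 and 40.8 FPKM with sh1 against 62.4, 63.5 and 58.4 FPKM with sh2 and 71.0 ± 3.74 FPKM in the control (SD, n = 3).

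Mitotic and G2/M genes had 6 of 32 higher in sh2 and none lower, with a median of 0.27 that ranged from -0.08 to 0.64 over the pairs. The 6 were KIF23, HMMR, PRC1, ESPL1, CENPF and MKI67, by 0.47 to 0.55. MKI67, the proliferation marker Ki-67, was 21.9, 19.4 and 18.1 FPKM with sh1 and 36.1, 22.1 and 27.7 FPKM with sh2. Of 37 S-phase and replication genes only PRIM2 and POLE3 passed, both higher in sh2, and the list's median was 0.08. Cholesterol synthesis genes had 5 of 23 higher and none lower, STARD4 by 0.98 and the regulator SREBF2 by 0.48.

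Stress and signalling lists were mixed. Of 20 MAPK feedback genes 3 were higher, namely the immediate early genes EGR1 (1.48), FOS (1.10) and DUSP1 (0.88), and 3 lower: CCND1 (-0.68), PHLDA1 (-0.62) and ETV5 (-0.46). Of these genes, the sh1 and sh2 libraries overlapped in all but CCND1. FOS was 324.3, 86.8 and 295.6 FPKM with sh1 and 656.1, 301.0 and 421.0 FPKM with sh2, and every pair was higher in sh2. CCND1, cyclin D1, was 102.4, 83.8 and 110.9 FPKM with sh1 and 49.3, 58.6 and 78.3 FPKM with sh2. Of 26 ATF4 and unfolded protein response genes 4 were higher (ATF3, CREB3L4, HERPUD1 and DDIT3) and none lower, and of 28 hypoxia and glycolysis genes 4 were higher and 4 lower.

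Among 16 genes of the BCL2 family and the outer mitochondrial membrane channels, 4 were higher and BID was lower. VDAC1, the main anion channel of that membrane, was 96.1, 95.4 and 111.0 FPKM with sh1 and 146.2, 162.6 and 170.8 FPKM with sh2, against 206.6 ± 31.5 FPKM in the control (SD, n = 3). Of 25 SWI/SNF chromatin remodeling subunits 3 were higher and SMARCB1 was lower. ACTL6A, the actin-like subunit among the 3, was 27.9, 35.9 and 42.1 FPKM with sh1 and 76.7, 75.4 and 71.7 FPKM with sh2. The p53 targets had 2 of 22 higher (SESN1 and TRIAP1), and the NF-kB list 2 of 12 (SOD2 and ICAM1), with none lower in either.

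Of 16 cohesin subunits and regulators only RAD21, the kleisin that closes the ring, passed: it was 75.5, 82.0 and 107.9 FPKM with sh1 and 144.5, 122.8 and 130.3 FPKM with sh2 (difference 0.59, SE 0.13, adjusted p = 0.0184, limma with 6 libraries). The other 15 members did not pass. Of 16 genes of RNA interference and microRNA processing, TNRC6C, a partner of Argonaute, was the 1 that passed, at 0.60.

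The share of members that passed in either direction was at or below the 17.1% of all tested genes in 7 lists: cohesin and its regulators (6.25%), RNA interference (6.25%), S phase (5.41%), p53 targets (9.09%), ATF4 and the unfolded protein response (15.4%), SWI/SNF (16.0%) and NF-kB (16.7%). It was 58.3% for mesenchymal markers, 48.0% for TGF-beta genes and 45.2% for interferon-stimulated genes. Libraries of sh1 and sh2 did not overlap in 28.6% of all tested genes. Among the 12 mesenchymal markers they did not overlap in 2, which were higher in sh2. For the 25 TGF-beta genes it was 7 higher and 2 lower, and for the 31 interferon-stimulated genes 13 higher and 1 lower. No list member other than CDH1 passed in the 9-library fit. With values scaled by the spike-ins, the median over all tested genes moved from -0.0072 to 0.12, and the median of the epithelial junction list turned to 0.0018; the 9-library calls were then 58 higher and 13 lower, and the 6-library calls 622 higher and 155 lower.

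**Figure D3:**
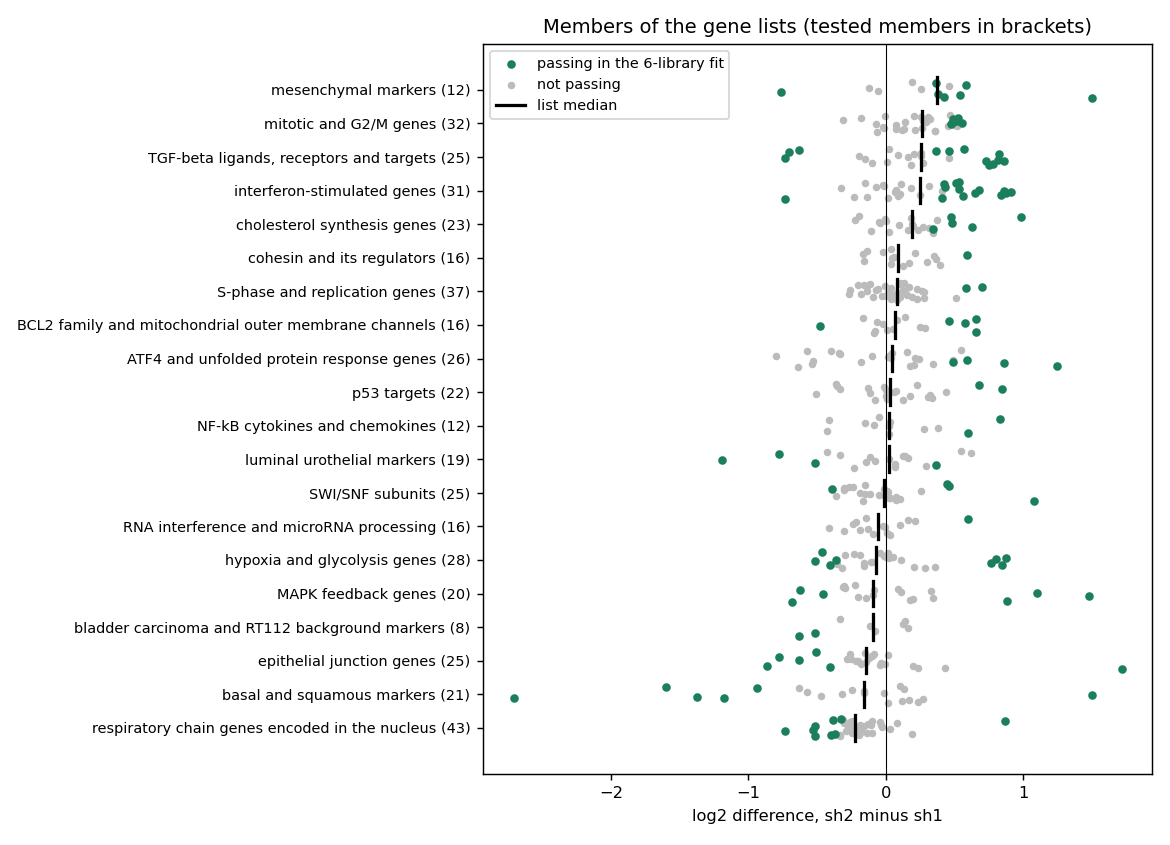
Each row is a gene list with its number of tested members, and each point is a member placed by its log2 difference, sh2 minus sh1. Green points passed in the 6-library fit, gray points did not, and the black bar is the list's median. The medians run from -0.22 for the respiratory chain to 0.37 for the mesenchymal markers, and most lists hold points on both sides of 0.

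Several of the largest differences lay outside the lists. These genes were picked after their values were seen, and each passed with 6 libraries and missed the threshold with 9. GJA1, which encodes the gap junction protein connexin 43, was 4.71, 1.41 and 16.3 FPKM with sh1 and 0.488, 0.285 and 0.219 FPKM with sh2 (difference -2.23). ALDH1A1, an aldehyde dehydrogenase that makes retinoic acid, was 134.8, 136.8 and 83.1 FPKM with sh1, 24.2, 49.7 and 29.3 FPKM with sh2, and 47.4, 52.3 and 65.6 FPKM in the control (difference -1.78, SE 0.18). ITGB1, the integrin beta-1 chain, was 86.8, 101.6 and 168.3 FPKM with sh1, 323.1, 325.1 and 283.8 FPKM with sh2, and 198.0, 279.3 and 210.4 FPKM in the control (difference 1.43, SE 0.19). EIF2AK3, the stress kinase PERK, was 4.08, 3.78 and 4.14 FPKM with sh1 and 12.5, 10.1 and 9.43 FPKM with sh2 (difference 1.21). The sh1 and sh2 libraries of all 4 genes did not overlap. That held for 28.6% of all tested genes and for 1583 of the 2038 that passed with 6 libraries.

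Short sequences in the 3′ UTR were read because a seed pairs there. The heptamer AGCTTTA was chosen with earlier results of these data known, and the hexamer TTACCG was picked from a scan of all heptamers after the data were seen, so both are descriptions without a test. The sites below are the 3′ UTR sites of the genes among the 17 that hold one, and the sites of STAG2, read from GENCODE release 29 transcripts on the sense strand, with the motif in capitals. Their coordinates are on GRCh38, while the deposited values were made on hg19, and each gene's longest annotated 3′ UTR was used.
CDH1 first site, chr16:68833626-68833654, plus strand: gcagttagtatAGCTTTAtactctctcca
CDH1 second site, chr16:68835267-68835295, plus strand: tttgttgaaatAGCTTTActgtttctcaa
PDCD4, chr10:110898444-110898472, plus strand: ggtttatacaaAGCTTTAtttagggggta
KCNS3, chr2:17932527-17932555, plus strand: taggttaacacAGCTTTAtaaacctcagt
ATL3, chr11:63627831-63627859, minus strand: gctagtctggtAGCTTTAagatagctttg
CEP85, chr1:26278250-26278278, plus strand: cagtacaagtcAGCTTTAaagtacagctt
NKAP, chrX:119925109-119925137, minus strand: tgttctgagaaAGCTTTAcagtgctactg
TSC22D4, chr7:100466868-100466896, minus strand: tcttcctatgcAGCTTTAatgtccccgtg
RAB1A, chr2:65088369-65088396, minus strand: acaacagattcTTACCGtctccacaaag
C10orf26, chr10:102815150-102815177, plus strand: gcatttactgtTTACCGaacaaatgtct
STAG2 3′ UTR, chrX:124101786-124101814, plus strand: tttgaaagctaAGCTTTAaacttcatttt
STAG2 coding sequence, chrX:124071258-124071286, plus strand: ctgagttgctcAGCTTTAttttggatcat
STAG2 coding sequence, chrX:124086610-124086639, plus strand: tccactgatgtCTTACCGAaattctttgct

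AGCTTTA stood in the 3′ UTR of 7 of the 12 genes higher in sh2 (those whose sites are shown) and of 0 of the 5 lower in sh2. MT2A, TGOLN2, VSIG10, MEGF6 and GABRE were higher in sh2 without it. Of the 11158 tested genes with an annotated 3′ UTR, 15.3% carried it. The share was 29.3% among the 982 that were higher in sh2 with 6 libraries, 8.38% among the 955 that were lower, and 14.5% among the others. Among calls of at least 1 in size, it was present in 20 of 49 higher and 0 of 54 lower genes.

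Carriers of AGCTTTA had a median difference of 0.07, against -0.02 for genes without it, and with 2 or more sites the median was 0.11. The medians of carriers in the 3 pairs were 0.11, 0.13 and 0.0017. Those of genes without it were -0.04, -0.04 and 0.00097, so in pair 3 carriers and the rest were nearly level. The trend of the difference with transcript length also varied over the pairs (Spearman correlation 0.09, 0.27 and -0.05). Carriers have longer 3′ UTRs (median 3163 bases against 1137), and within the classes of short (up to 794 bases), middle (up to 2128 bases) and long 3′ UTRs the carriers' medians were 0.15, 0.10 and 0.06, against -0.04, -0.01 and -0.01 for the rest. Of the 15789 heptamers with at least 100 carriers it ranked 3 by highest median, and of the 8479 with at least 1000 carriers it ranked 1. Heptamers that overlap it came next among the 8479: CAGCTTT ranked 2 (median 0.06) and ACAGCTT ranked 3 (0.05). CAGCTTT was in 34.0% of the 6-library calls higher in sh2 and 12.1% of those lower. By the gap between these 2 shares AGCTTTA ranked 2 of 15789, so the trait is not particular to it. Against the control, the median of AGCTTTA carriers was 0.01 with sh1 and 0.10 with sh2, and that of genes without it -0.0049 and -0.03. In the 12 called genes higher in sh2, the call itself places sh1 below sh2, and the control mean was above the sh1 mean in each. MT2A, TGOLN2, VSIG10, MEGF6 and GABRE, which lack AGCTTTA, are among them. Carriers of the reverse complement TAAAGCT and of the reversal ATTTCGA also have long 3′ UTRs (median 2941 and 3263 bases). Against the control their medians were 0.06 and 0.11 with sh1, and 0.09 and 0.12 with sh2. Beside these motifs, the median of AGCTTTA carriers was lower with sh1 and at a like level with sh2. Beside the genes without AGCTTTA, it was higher with sh1 and with sh2. TAAAGCT was in 18.9% of the 6-library calls higher in sh2 and 15.3% of those lower, and ATTTCGA in 2.55% and 1.78%. The reason for these levels was not tested. In pair 3 the medians of TAAAGCT and ATTTCGA carriers were -0.038 and -0.045. The values against the control were not split by 3′ UTR length.

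TTACCG ran the other way. By lowest median, the heptamers that hold it ranked from 2 (CTTACCG and TTACCGA) to 1110 (GTTACCG) of 15789, and GAATACG ranked 1. Those with little gap include ATTACCG, in 1.32% of the 6-library calls higher in sh2 and 1.36% of those lower. For TTACCGG the shares were 1.53% and 1.47%. TTACCG was in the 3′ UTR of 2 of the 5 genes lower in sh2 (RAB1A and C10orf26) and of 0 of the 12 higher. It was carried by 9.42% of the genes lower in sh2 with 6 libraries, 4.68% of those higher and 5.69% of the others. Among calls of at least 1 in size it was in 10 of 54 lower and 0 of 49 higher genes. Its 661 carriers had a median of -0.09, against -0.0051 for genes without it. Unlike for AGCTTTA, the median was not farther from 0 with more sites (-0.088 for 611 genes with 1 site, -0.050 for 50 genes with 2 or more). The medians of the pairs were -0.13, 0.02 and -0.10, against -0.01, -0.02 and 0.0067 for genes without it, so in pair 2 carriers were not lower. In that pair carriers of TAAAGCT and ATTTCGA were at 0.05 and 0.06. Against the control the median of TTACCG carriers was 0.07 with sh1 and 0.0055 with sh2. That of TAAAGCT carriers was 0.06 and 0.09, and that of ATTTCGA carriers 0.11 and 0.12. TTACCG carriers have long 3′ UTRs as well (median 3131 bases).

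STAG2 itself holds AGCTTTA once in its 3′ UTR, at base 1200 of 2059, and did not differ beyond the spread (-0.13). Both motifs are also in its coding sequence, AGCTTTA once at coding base 2479 and TTACCG once, within the octamer CTTACCGA at base 3128. In all, 8.18% of the 11158 genes hold AGCTTTA in their coding sequence, 9.64% hold TTACCG and 0.807% hold CTTACCGA. No source used here gives the sequence of either hairpin, so whether either motif pairs with a hairpin's seed was not tested. Among 2370 human mature miRNAs in RefSeq (GRCh38.p14), AGCTTTA pairs with the seed of 1, which is shown with bases 2 to 8 in capitals, whereas none has a seed that pairs with the heptamers around TTACCG that were looked up.
hsa-miR-9-3p: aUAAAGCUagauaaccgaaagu

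**Figure D4:**
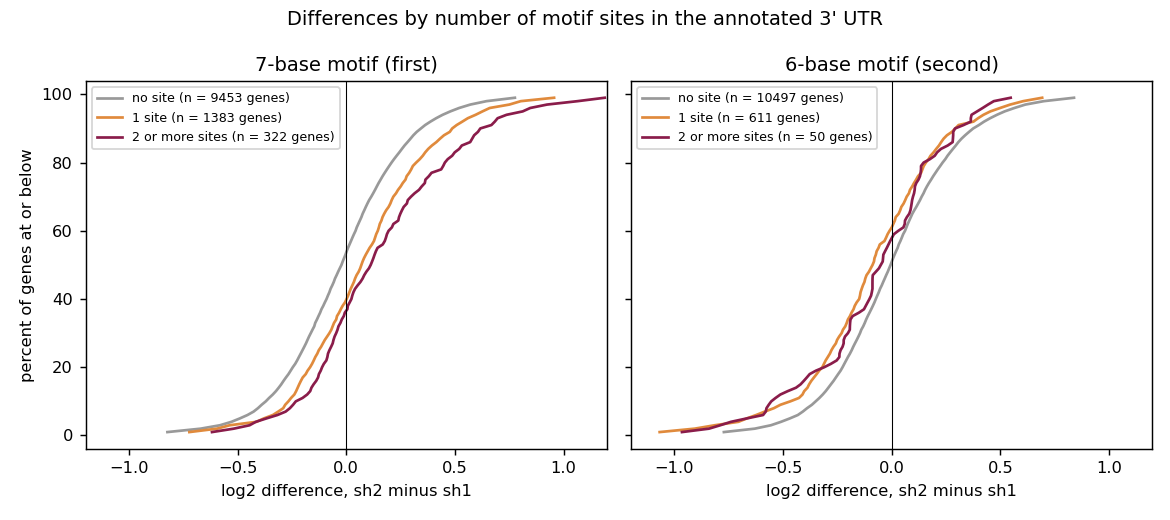
Cumulative share of genes (y axis, percent) at or below a log2 difference, sh2 minus sh1 (x axis), for genes with no site, 1 site, and 2 or more sites in their annotated 3′ UTR. On the left, for the 7-base motif, the curves move to higher differences with more sites (medians -0.02, 0.07 and 0.11). On the right, for the 6-base motif, the curves of carriers lie at lower differences over most of their range than that of the 10497 genes with no site.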

How the data were processed

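RNA of 9 RT112 libraries was read from 1 table of FPKM values that the authors deposited, made on hg19 per the submitters' processing notes. Aligner, quantification program and annotation: not given in the sources used here. Of 210330 values, 4.88% had lost a decimal point and were divided by 1000, and 1332 of those had no intact value of the same gene to be set against. The 92 spike-ins were left out, except for the spike-in scaling. Genes with a mean of at least 1 FPKM over 9 libraries entered limma 3.58.1 (R 4.3.3) as log2(FPKM + 1), with group and replicate number as terms, a trended prior variance, two-sided moderated tests and Benjamini-Hochberg adjustment at a threshold of 0.05. The fit of the 6 hairpin libraries alone was the main alternative, and the fits were tested on simulated data. Python 3.11.15, numpy 2.4.6 and pandas 2.3.3 were used for reading the table and for sequence searches.

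Replicate numbers come from the titles. The numbers were taken as pairs because the 3 groups share them. Deviations from the group means correlated at 0.118 to 0.491 between same-numbered libraries and at -0.629 to 0.205 between the others, so the ranges overlap. Between sh1 and sh2 libraries the same numbers gave 0.49, and different numbers gave -0.319 to -0.190. Deviations from a group's mean cancel within the group, so positive values between same numbers bring negative ones between the others. The negative values are thus no separate evidence for the pairing. The members and gene lists were chosen with earlier results of these data known. Named genes are STAG2, the called genes in each direction with all pairs alike, and in each list every called member or the one with the smallest p; further list members that passed with 6 libraries were added after their values were seen. Names were matched to GENCODE release 29 through RefSeq synonyms for 11551 of the tested genes, and 11158 had a 3′ UTR. Of the genes tested, entries whose names had turned into dates stayed in and are not named.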

Additional observations from a re-analysis of the deposited data

How the results depend on the processing

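The replicate block mattered: the fit of 9 libraries called 17 genes with it and 26 without it, and the fit of the 6 hairpin libraries called 2038 with it and 92 without it. The count was 0 without a filter on low values, 71 with spike-in scaling, 84 with quantile normalization, 287 (171 higher, 116 lower) with the length trend of each library removed, 1727 with array weights, and 10 with restored genes left out; at unadjusted p under 0.05 the unfiltered fit gave 3021. Leaving out 1 library or 1 replicate number gave 0 to 421. In alternatives of the 6-library fit, chosen after seeing the data, the count was 951, 1522 and 1869 for pairs other than 1, 2 and 3, 777 with spike-in scaling, 1820 with quantile normalization, 1116 with restored genes left out, 1875 with no variance trend and 1970 with the length trend removed. Why the counts differ was not tested. The 17 genes gave 418 values over 25 other settings: 227 passed, 191 did not, and 0 changed direction. The share of AGCTTTA carriers among genes higher in sh2 was 58.3% with 9 libraries, 0% without replicate 3 (1 gene) and 23.6% in the 6-library fit of pairs other than 2; leaving out 1 library or number gave 0% to 50%. No share could be given where no gene was called. The STAG2 difference became 0.02 without sh2 replicate 3 and 0.049 without replicate 3, and ranged from -0.35 to 0.049 with a library or number left out.

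Of 500 list medians, 35 changed sign, 20 of them by more than the SD over the pairs. With spike-in scaling those 20 include RNA interference (0.082), epithelial junction (0.0018), MAPK feedback (0.060), hypoxia (0.080) and SWI/SNF (0.12). With quantile normalization they include NF-kB (-0.052), and with restored genes left out MAPK feedback (0.089). With a library or number left out, medians ranged from -0.17 to 0.16 for NF-kB, from -0.17 to 0.013 for MAPK feedback, from -0.035 to 0.041 for luminal markers, from -0.41 to 0.22 for basal markers, from -0.18 to 0.058 for hypoxia and from -0.017 to 0.20 for cohesin. Depth per library is unknown, and 3 libraries a group limit every call.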
